A study of Homo sapiens with 24 samples.

Results

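Complement genes encode a set of plasma and cell-surface proteins, and 9 of them were followed here, chosen by exact name from the 55773 gene names counted: C1QA, C1QB, C1QC, C2, C3, CFB, CFD, CFP and SERPING1. Complement is a cascade of blood proteins that coats microbes and debris. It starts through antibody-bound C1q (the classical pathway), through lectins, or through slow self-activation of C3 (the alternative pathway), and all routes meet at C3, whose fragments mark a surface for uptake and recruit cells. The liver makes most plasma complement, but monocytes and macrophages make C1q, factor D and properdin and also C2, C3 and factor B.

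The cells were U937, a human line of myelomonocytic character, and the study disrupted enzymes that methylate lysine 9 of histone H3, a mark of silent chromatin. There were 24 RNA-seq libraries in 8 groups of 3. One arm received DMSO as the vehicle or UNC0638, which blocks the catalytic activity of G9a and GLP, at 2 µM or 4 µM, with a harvest after 3 days for the UNC0638 cells. The other arm carried a scrambled short hairpin RNA, hairpin 2 or 3 against G9a (the EHMT2 gene), or hairpin 2 or 4 against SUV39H1. Hairpin cells against these targets were transduced by lentivirus and selected for 3 days with puromycin. For DMSO cells no harvest time is stated, and for scrambled cells no selection. The labels also do not say that replicates were separate cultures, so p-values measure the spread between these libraries, which may be technical.

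Libraries held 31545854 to 53803704 gene counts, and expression is reported as CPM (counts over the library total, on a common scale) ± SD with n = 3 libraries per group. EHMT2 stood at 72.6 and 71.6 CPM with G9a hairpins 2 and 3 against 140 CPM in scrambled libraries, and SUV39H1 at 19.3 and 22.4 CPM with SUV39H1 hairpins 2 and 4 against 56.5 CPM. All 10 myelomonocytic markers were tested, and their summed mean level ran from 1749 CPM in scrambled to 4861 CPM in SUV39H1 hairpin 2 libraries. T cell and erythroid markers summed to at most 0.0293 and 0.0166 CPM in any group, epithelial and fibroblast markers to at most 0.417 and 0.765 CPM. In the hepatocyte list ALB, APOA1, APOB and TTR were each under 0.1 CPM on average, and the list's sum of 37.3 (scrambled) to 77.7 CPM (SUV39H1 hairpin 2) came mainly from SERPINA1. Of the B cell markers MS4A1 was under 0.1 CPM, while CD79A and PAX5 were detected. The part of these markers in the results below was not tested. In bulk RNA, fewer cells expressing a gene and less RNA per cell cannot be told apart.

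Of the 9 genes, 6 passed the filter on low counts (C1QA, C2, C3, CFB, CFD and CFP), which kept 20147 gene names. C1QB, C1QC and SERPING1 did not pass and are described by their counts. C1QA passed only through the groups in which it was high, so a difference was built into its entry. Its differences are described without a call, and counts over the genes cover the other 5. Tests used edgeR's quasi-likelihood model over all 24 libraries, and a gene was called at a Benjamini-Hochberg adjusted p under 0.05 over all 20147. The fold changes below are log2 differences ± SE of that fit.

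C3, the protein on which all pathways meet, was the most abundant of the 9 by CPM and rose several-fold with both SUV39H1 hairpins (chromosome 19, 6677715 to 6730573, minus strand, hg19). Its 3 libraries stood at 444, 442 and 465 CPM with SUV39H1 hairpin 2 and at 308, 303 and 335 CPM with hairpin 4. Scrambled libraries stood at 53.1, 53.6 and 62.6 CPM. All 6 SUV39H1 hairpin libraries lay above every other library. G9a hairpin 2 libraries held 76.0, 69.8 and 77.4 CPM and G9a hairpin 3 libraries 84.0, 84.0 and 79.6 CPM. DMSO libraries held 65.9, 76.6 and 85.2 CPM, UNC0638 2 µM libraries 64.0, 69.1 and 72.4 CPM and 4 µM libraries 71.2, 75.0 and 79.5 CPM. The G9a hairpin libraries lay above the scrambled ones but within the range of DMSO.

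Against scrambled, C3 rose by 2.91 ± 0.08 with SUV39H1 hairpin 2 (7.50-fold, adjusted p = 1.55e-21) and by 2.35 ± 0.08 with hairpin 4 (5.11-fold, adjusted p = 4.57e-19). Only 0.789% and 0.402% of tested genes had a higher log2 difference in these comparisons. The rise was 0.55 ± 0.07 larger with hairpin 2 than with hairpin 4 (adjusted p = 2.94e-07). With the G9a hairpins C3 rose by 0.38 ± 0.07 and 0.54 ± 0.07 (adjusted p = 0.000159 and 1.36e-06). Scrambled libraries themselves were 0.40 ± 0.07 below DMSO (adjusted p = 0.000163), a gap of the same order as the G9a difference. At 4 µM UNC0638 the difference of C3 from DMSO was -0.01 ± 0.07 (adjusted p = 0.972). At 2 µM it was -0.15 ± 0.07 (adjusted p = 0.284), and it was called lower without DMSO replicate 1 (-0.25, adjusted p = 0.0178). C3 and its neighbour GPR108 overlap by 649 bases on the same strand in the deposited coordinates, and GPR108 differed from scrambled by 0.60 ± 0.04 and 0.39 ± 0.04 with the SUV39H1 hairpins.

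**Figure D1:**
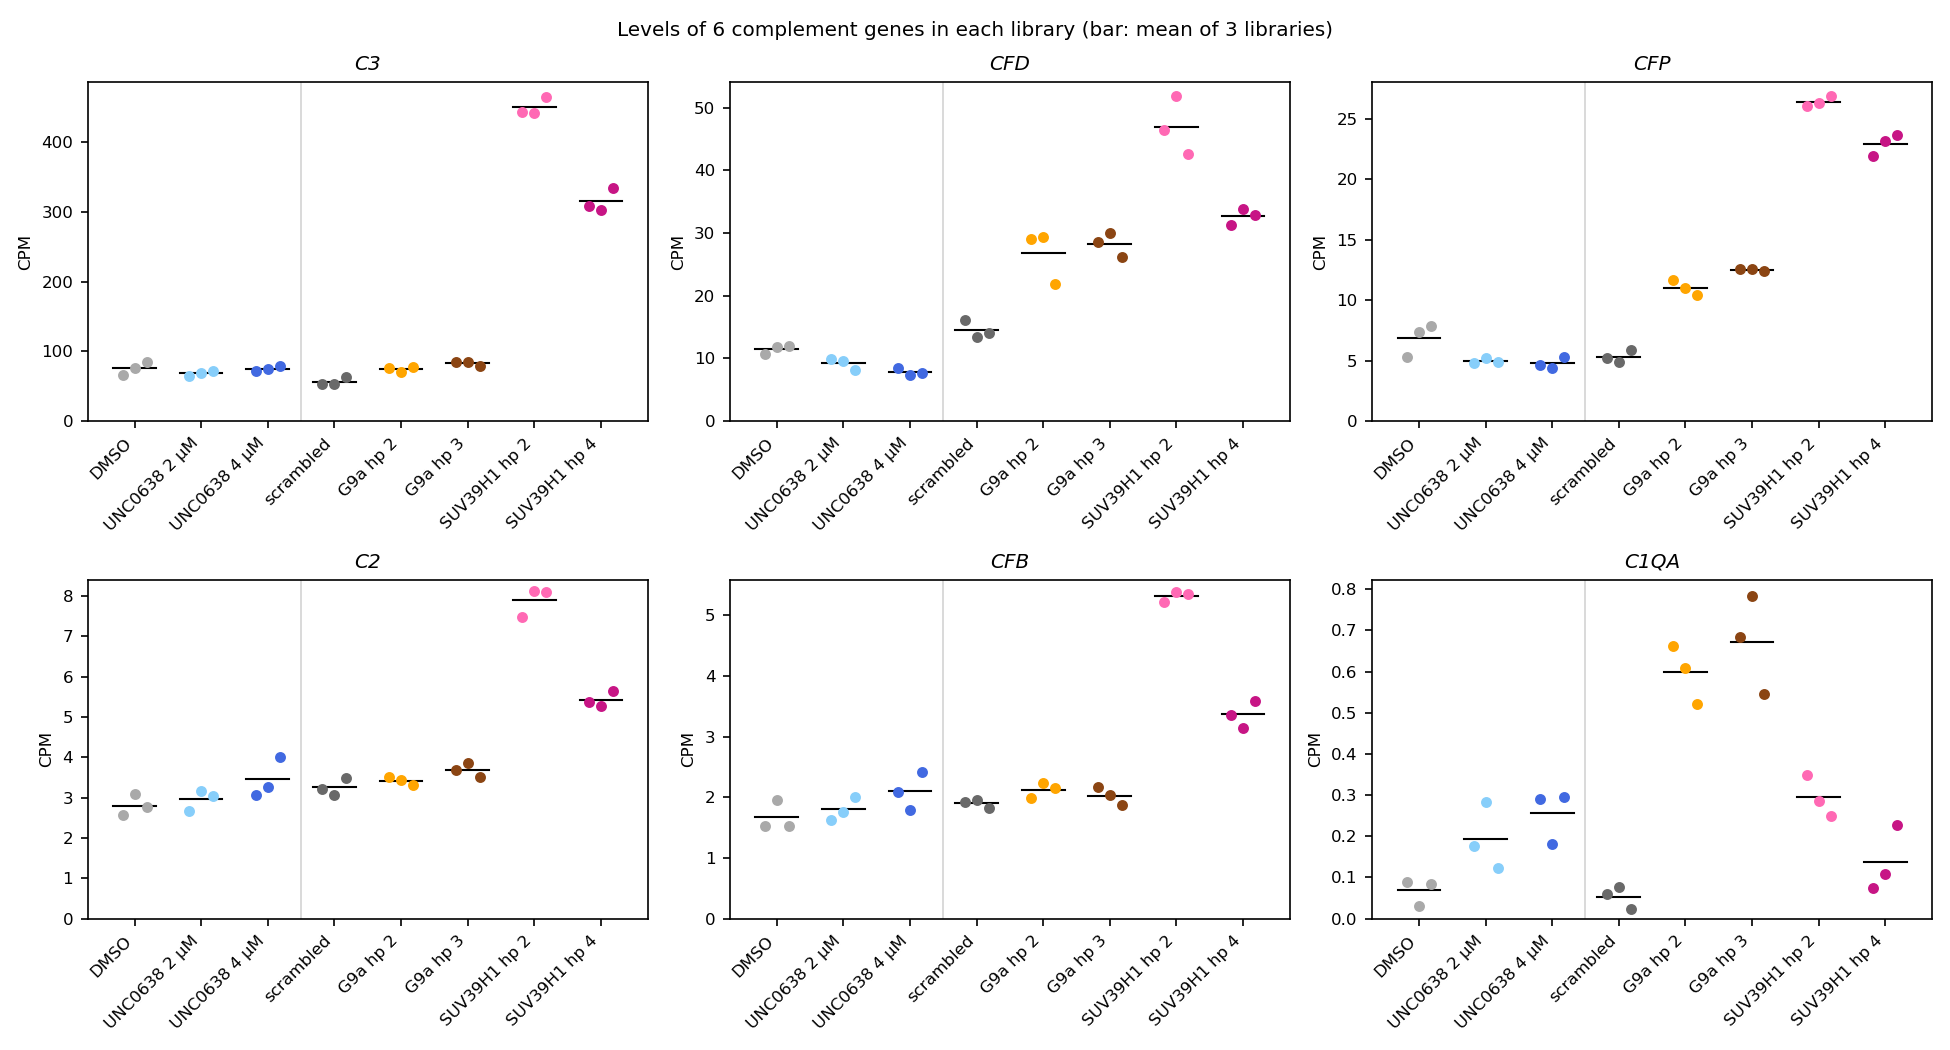
Level of 6 complement genes in CPM (vertical axis, linear, from 0) in each of the 24 libraries (points) by group, with the mean of 3 libraries as a bar and a grey line between the inhibitor and hairpin arms; hp is hairpin. C3 libraries with SUV39H1 hairpins sit between 303 and 465 CPM, above every other library, while C1QA is highest with the G9a hairpins.

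Factor B (CFB) and C2 are related serine proteases that do the same job in different pathways: each supplies the catalytic part of an enzyme that cuts C3, factor B in the alternative and C2 in the classical and lectin pathways. Both rose with the SUV39H1 hairpins, and neither passed the test with the G9a hairpins. Their genes are neighbours in the major histocompatibility region on chromosome 6, C2 at 31865562 to 31913449 and CFB at 31895475 to 31919825, both on the plus strand (hg19). These intervals overlap by 17975 bases on 1 strand, so reads of the pair may not be told apart. C2 starts 98 bases past the end of EHMT2, the G9a gene, which runs the other way. The start regions of CFB and C2 are shown because the pair moved together while differing in sequence there (RefSeq, GRCh38.p14, plus strand, 250 bases before to 50 after the start; for C2 the first of 2 listed starts). Capitals mark matches to an interferon-response type motif (ISRE-type, GAAANNGAAA) or a STAT-type motif (GAS-type, TTCNNNGAA), searched on both strands, with no overlap between the matches shown.
CFB, chr6:31945845-31946144: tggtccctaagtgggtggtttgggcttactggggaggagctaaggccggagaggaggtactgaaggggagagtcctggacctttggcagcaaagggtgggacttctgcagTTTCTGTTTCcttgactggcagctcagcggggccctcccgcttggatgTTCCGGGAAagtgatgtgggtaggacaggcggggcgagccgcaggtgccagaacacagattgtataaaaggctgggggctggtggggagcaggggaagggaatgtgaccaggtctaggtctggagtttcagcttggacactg
C2, chr6:31897533-31897832: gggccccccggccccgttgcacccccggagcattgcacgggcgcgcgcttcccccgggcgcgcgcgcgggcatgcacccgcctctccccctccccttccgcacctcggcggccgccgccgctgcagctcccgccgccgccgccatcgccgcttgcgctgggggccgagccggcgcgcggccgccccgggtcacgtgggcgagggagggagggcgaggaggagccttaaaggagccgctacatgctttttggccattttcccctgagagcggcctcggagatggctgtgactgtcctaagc
The CFB region held 1 ISRE-type match, 140 to 131 bases before the start and on the opposite strand, and 1 GAS-type match, 92 to 84 bases before it. The C2 region held neither. Of 35116 such regions in the genome, 3.57% held the ISRE-type and 7.66% the GAS-type letters. Regions were listed for 6 of the 9 genes (C1QA, C1QB, C2, CFB, CFD and CFP), and another motif, of NF-kB type (GGGNNNNNCC), was found in 58.7% of all regions and in at least 1 region of each of these 6 but C1QA. The regions of CFD and CFP held neither the ISRE-type nor the GAS-type letters. A match is a description of letters and not a binding site.

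CFB stood at 5.22, 5.39 and 5.35 CPM with SUV39H1 hairpin 2, at 3.36, 3.15 and 3.58 CPM with hairpin 4, and at 1.93, 1.95 and 1.82 CPM in scrambled libraries. The 3 groups did not overlap. CFB libraries with G9a hairpins held 1.99, 2.23 and 2.15 CPM (hairpin 2) and 2.17, 2.03 and 1.88 CPM (hairpin 3). DMSO libraries held 1.53, 1.95 and 1.53 CPM, 2 µM libraries 1.63, 1.75 and 2.01 CPM and 4 µM libraries 2.09, 1.79 and 2.42 CPM. These last 5 groups overlapped with scrambled or with each other. CFB rose by 1.39 ± 0.10 with SUV39H1 hairpin 2 (adjusted p = 2.19e-12) and by 0.69 ± 0.10 with hairpin 4 (adjusted p = 2.18e-06). The G9a hairpin differences were 0.14 ± 0.11 and 0.08 ± 0.12 (adjusted p = 0.375 and 0.646).

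C2 gave the same order at a higher CPM. It stood at 7.49, 8.12 and 8.10 CPM with SUV39H1 hairpin 2 and at 5.37, 5.26 and 5.65 CPM with hairpin 4. Scrambled libraries held 3.21, 3.06 and 3.49 CPM, G9a hairpin 2 libraries 3.51, 3.43 and 3.31 CPM and G9a hairpin 3 libraries 3.67, 3.85 and 3.51 CPM. SUV39H1 hairpin libraries were again apart from all others. In the inhibitor arm C2 held 2.56, 3.08 and 2.76 CPM with DMSO, 2.66, 3.17 and 3.03 CPM at 2 µM and 3.07, 3.27 and 4.01 CPM at 4 µM. C2 rose by 1.19 ± 0.09 and 0.61 ± 0.09 with SUV39H1 hairpins 2 and 4 (adjusted p = 2.83e-12 and 1.28e-06). The G9a differences were 0.05 ± 0.10 and 0.17 ± 0.10 (adjusted p = 0.693 and 0.156). ZBTB12, which lies inside the C2 interval on the other strand and whose reads the unstranded kit does not separate, was lower with the SUV39H1 hairpins, by -0.42 ± 0.08 and -0.56 ± 0.08.

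At 4 µM UNC0638 both genes of the pair were called higher than DMSO, C2 by 0.33 ± 0.10 (adjusted p = 0.0184) and CFB by 0.37 ± 0.12 (adjusted p = 0.0246), with overlapping libraries. DESeq2 did not call CFB (adjusted p = 0.0822). Without replicate 3 of the 4 µM group these values were 0.19 and 0.25 and neither was called (adjusted p = 0.238 and 0.241). Neither call held without DMSO replicate 1 (C2 0.27, CFB 0.32; adjusted p = 0.0702 and 0.0833) or without DMSO replicate 3 (C2 0.33, CFB 0.32; adjusted p = 0.0617 and 0.143). Across the 24 libraries C2 and CFB had the highest correlation of any pair of the 6 genes (Pearson's r = 0.977 of log2 CPM), as a description over libraries of 8 groups and with overlapping intervals.

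Factor D (CFD) and properdin (CFP) act only in the alternative pathway. Factor D cuts factor B once it is bound to C3, and properdin holds the resulting enzyme together on a surface. Both rose with every hairpin against G9a or SUV39H1, and both were lower at 4 µM UNC0638. CFD (chromosome 19, 859453 to 863453, plus strand, hg19) stood at 46.4, 51.8 and 42.6 CPM with SUV39H1 hairpin 2 and at 31.3, 33.8 and 32.9 CPM with hairpin 4. G9a hairpin 2 libraries held 29.1, 29.3 and 21.9 CPM, G9a hairpin 3 libraries 28.6, 30.0 and 26.2 CPM and scrambled libraries 16.1, 13.4 and 14.0 CPM. All knockdown libraries were above the scrambled ones, and the G9a pair overlapped each other. DMSO libraries held 10.7, 11.7 and 12.0 CPM, 2 µM libraries 9.87, 9.64 and 8.20 CPM and 4 µM libraries 8.42, 7.34 and 7.70 CPM. Every UNC0638 library was below every DMSO library.

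CFD rose by 1.61 ± 0.09 with SUV39H1 hairpin 2 (adjusted p = 1.99e-14), by 1.05 ± 0.09 with hairpin 4 (adjusted p = 2.31e-10) and by 0.87 ± 0.09 and 0.96 ± 0.09 with G9a hairpins 2 and 3 (adjusted p = 2.58e-08 and 4.59e-09). It fell by 0.55 on the log2 scale at 4 µM (SE 0.11, adjusted p = 0.00057). At 2 µM the difference was -0.32 ± 0.11 and was not called (adjusted p = 0.0725), though it was without DMSO replicate 1 (-0.37, adjusted p = 0.0439) and by DESeq2 (adjusted p = 0.0351). Scrambled libraries were 0.36 ± 0.10 above DMSO (adjusted p = 0.00828), a call that ended without scrambled replicate 1 (0.28, adjusted p = 0.0643).

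Properdin (CFP, chromosome X, 47483612 to 47489704, minus strand, hg19) stood at separate levels in the 5 groups of the hairpin arm, although the G9a hairpins did not pass a test against each other. SUV39H1 hairpin 2 libraries held 26.1, 26.3 and 26.9 CPM and hairpin 4 libraries 22.0, 23.2 and 23.7 CPM. G9a hairpin 2 libraries held 11.7, 11.0 and 10.4 CPM, G9a hairpin 3 libraries 12.6, 12.6 and 12.4 CPM and scrambled libraries 5.26, 4.90 and 5.84 CPM. These 5 groups did not overlap. DMSO libraries spread most for CFP, at 5.30, 7.41 and 7.91 CPM. UNC0638 libraries held 4.77, 5.23 and 4.92 CPM at 2 µM and 4.65, 4.41 and 5.30 CPM at 4 µM. DMSO replicate 1 lay at the level of the UNC0638 libraries.

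CFP rose by 2.22 ± 0.09 and 1.98 ± 0.09 with SUV39H1 hairpins 2 and 4 (adjusted p = 1.27e-17 and 5.48e-16). With G9a hairpins 2 and 3 it rose by 1.03 ± 0.10 and 1.23 ± 0.10 (adjusted p = 2.38e-09 and 7.27e-11). It was lower than DMSO at 2 µM by -0.46 ± 0.11 (adjusted p = 0.00464) and at 4 µM by -0.50 ± 0.10 (adjusted p = 0.000845). The 2 µM call ended without DMSO replicate 3 (-0.33, adjusted p = 0.089). Scrambled libraries were also below DMSO for CFP, by -0.34 ± 0.10 (adjusted p = 0.0142), a call that ended without DMSO replicate 2 (-0.29, adjusted p = 0.0595), DMSO replicate 3 (-0.20, adjusted p = 0.186) or scrambled replicate 2 (-0.27, adjusted p = 0.099).

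Levels of different genes compare only per length, as RPKM (CPM divided by the deposited summed length in kilobases). On that scale CFD and C3 were close in DMSO libraries, at 9.30 ± 0.534 and 9.11 ± 1.16 RPKM. With the G9a hairpins CFD stood at 21.7 ± 3.42 and 22.9 ± 1.59 RPKM and C3 at 8.94 ± 0.485 and 9.91 ± 0.303 RPKM. With SUV39H1 hairpin 4 the order was reversed, with C3 at 37.9 ± 2.06 and CFD at 26.4 ± 1.03 RPKM. CFP stood at 5.02 ± 0.196 RPKM there, C2 at 0.980 ± 0.0360 and CFB at 0.494 ± 0.0319 RPKM.

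The C1q chains begin the classical pathway: C1QA, C1QB and C1QC each encode 1 of the chains that assemble into C1q, and their genes lie together on the plus strand of chromosome 1 (C1QA at 22962999 to 22966101, C1QC at 22970123 to 22974603 and C1QB at 22979255 to 22988031, hg19). Macrophages are a major source of C1q. All 3 were near the limit of detection here, with 293, 60 and 68 reads for C1QA, C1QB and C1QC over the 24 libraries together. Intervals and limits on such counts cover counting error only. The first listed start region of C1QA is shown because C1QA, of the genes tested, had its highest levels with the G9a hairpins. Its GAS-type match, 66 to 58 bases before the start, is in capitals (RefSeq, GRCh38.p14, plus strand).
C1QA, chr1:22636213-22636512: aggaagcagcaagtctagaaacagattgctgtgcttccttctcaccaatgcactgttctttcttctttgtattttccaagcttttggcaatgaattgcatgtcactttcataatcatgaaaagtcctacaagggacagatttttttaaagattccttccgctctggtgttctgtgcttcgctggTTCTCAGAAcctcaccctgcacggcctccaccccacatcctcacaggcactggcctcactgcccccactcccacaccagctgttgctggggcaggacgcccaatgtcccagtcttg
No ISRE-type match was found in the C1QA region, and the C1QB region held neither motif.

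C1QA was counted at 28, 29 and 22 reads with G9a hairpin 2 and at 29, 32 and 25 reads with G9a hairpin 3. Scrambled libraries held 2, 4 and 1 reads. SUV39H1 hairpin 2 libraries held 14, 9 and 10 reads and hairpin 4 libraries 4, 5 and 10 reads. The G9a hairpin libraries were thus the highest, in contrast to the 5 genes above. DMSO libraries held 4, 1 and 4 reads, 2 µM libraries 7, 11 and 6 reads and 4 µM libraries 13, 8 and 15 reads. As levels these group means were 0.598 ± 0.0722 and 0.671 ± 0.120 CPM for the G9a hairpins, 0.295 ± 0.0504 and 0.136 ± 0.0801 CPM for SUV39H1 hairpins 2 and 4, and 0.0530 ± 0.0268 CPM for scrambled.

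Against the 7 scrambled reads, the log2 difference of C1QA was 3.37 ± 0.39 and 3.54 ± 0.38 with G9a hairpins 2 and 3, 2.29 ± 0.48 with SUV39H1 hairpin 2 and 1.10 ± 0.55 with hairpin 4. All 6 G9a hairpin libraries were above every other library, and SUV39H1 hairpin 4 overlapped scrambled. Between the G9a and the SUV39H1 hairpins the difference was 1.76 ± 0.20. Against DMSO it was 1.80 ± 0.45 at 4 µM UNC0638 and 1.34 ± 0.49 at 2 µM. In a fit of DMSO and UNC0638 libraries alone C1QA did not pass the filter. The SE of C1QA was several times that of C3.

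C1QC did not follow C1QA with the G9a hairpins, where C1QA was highest. At 4 µM UNC0638 both held more reads than with DMSO, 36 against 9 for C1QA and 25 against 8 for C1QC. Both also held more reads with each SUV39H1 hairpin than in scrambled libraries, C1QA most with hairpin 2 and C1QC with hairpin 4. C1QB followed C1QA in part, being higher with the G9a hairpins than with the SUV39H1 hairpins, but held 0 reads with SUV39H1 hairpin 2. C1QC was counted at 8, 6 and 11 reads at 4 µM and at 5, 8 and 3 reads with SUV39H1 hairpin 4, while the 6 G9a hairpin libraries held 2 reads in all and the 3 scrambled libraries 1 read. C1QB was counted at 4, 4 and 3 reads and 3, 6 and 2 reads with G9a hairpins 2 and 3, at 0 reads in all 3 libraries of SUV39H1 hairpin 2 and at 1, 3 and 0 reads with hairpin 4. The count of 0 allows up to 0.0269 CPM over the 3 libraries. C1QB thus held 22 reads with the G9a hairpins against 4 with the SUV39H1 hairpins, a ratio per total count of 5.39 (exact 95% counting interval 1.83 to 21.5). C1QC held 2 against 22, and the ratio of SUV39H1 to G9a hairpins was 11.2 (exact 95% counting interval 2.76 to 98.5). Scrambled libraries held 1, 0 and 1 reads of C1QB, and 4 µM libraries held 5, 4 and 3. DMSO libraries held 6, 0 and 1 reads of C1QB and 4, 0 and 4 of C1QC, and 2 µM libraries 4, 0 and 9 of C1QB and 3, 3 and 4 of C1QC.

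**Figure D2:**
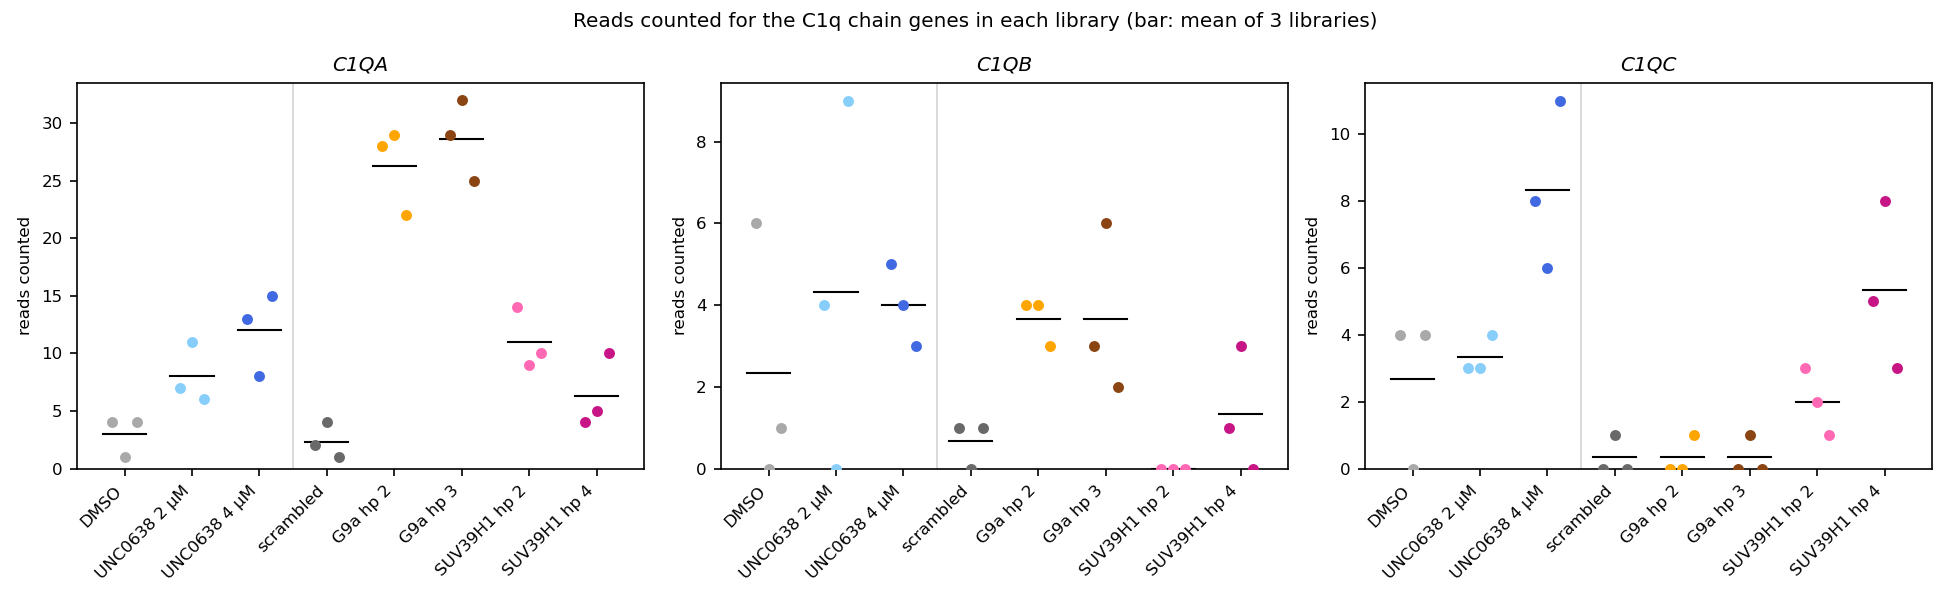
Reads counted (vertical axis, not scaled for depth) for C1QA, C1QB and C1QC in each of the 24 libraries (points) by group, with the mean of 3 libraries as a bar; hp is hairpin. C1QA reaches 32 reads with G9a hairpin 3, where C1QC has 0, 1 and 0 reads, and C1QC reaches 11 reads at 4 µM UNC0638.

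SERPING1, the C1 inhibitor, stops the proteases of the C1 complex and is a gene that interferon induces in many cells. It was listed at 0 reads in all 24 libraries, out of 1036670994 counts in all (chromosome 11, 57364860 to 57382326, plus strand, hg19). Nothing in the sources used here says whether reads of SERPING1 could be assigned to it, so the 0 is a listed value and not a limit on its expression. Its neighbour UBE2L6 stood at a mean of 77.3 CPM over the libraries and ZDHHC5, farther along, at 157 CPM. Between SERPING1 and ZDHHC5, YPEL4 and MIR130A were also at 0, while CLP1 stood at 31.2 CPM. Of all gene names 17390, or 31.2%, held 0 counts in every library.

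The 5 genes other than C1QA all differed among the 8 groups, as did 84.7% of all tested genes. Against scrambled, both SUV39H1 hairpins gave higher calls for all 5 (34.5% of all genes with hairpin 2 and 31.8% with hairpin 4). Called and at least 2-fold higher were 5 genes with hairpin 2 (9.77% of all genes) and 3 with hairpin 4 (5.64%), C3, CFP and CFD. The median log2 difference of the 5 was 1.61 and 1.05, against 0.02 and 0.03 over all genes. With either G9a hairpin 3 of the 5 were called higher, C3, CFD and CFP (22.1% of all genes with hairpin 2 and 22.6% with hairpin 3), and CFP was at least 2-fold higher (1.75% and 1.88%). All these hairpin comparisons share the scrambled libraries.

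At 4 µM UNC0638, 2 of the 5 were called higher, C2 and CFB (10.2% of all genes), and CFD and CFP lower (9.73%). At 2 µM only CFP was called, and lower (3.34%). Between 4 and 2 µM none of the 5 was called by edgeR or DESeq2 (1.84% of all genes), and 1 had an unadjusted p under 0.05, C2. Hairpins 2 and 3 against G9a gave no call either by edgeR or DESeq2 (0.00993% of all genes), and 2 genes, C3 and CFP, had an unadjusted p under 0.05. SUV39H1 hairpin 2 was above hairpin 4 for all 5 (20.9% of all genes), for CFP by 0.24 ± 0.07 and for CFD by 0.56 ± 0.08. Without replicate 1 of hairpin 4 the call of CFP ended (0.20, adjusted p = 0.076). Between the knockdowns all 5 were lower with the G9a than with the SUV39H1 hairpins (32.6% of all genes, while 32.9% were higher), from -0.41 ± 0.06 for CFD to -2.17 ± 0.05 for C3. The controls also differed, scrambled being above DMSO for CFD (14.9%) and below it for C3 and CFP (16.5%).

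**Figure D3:**
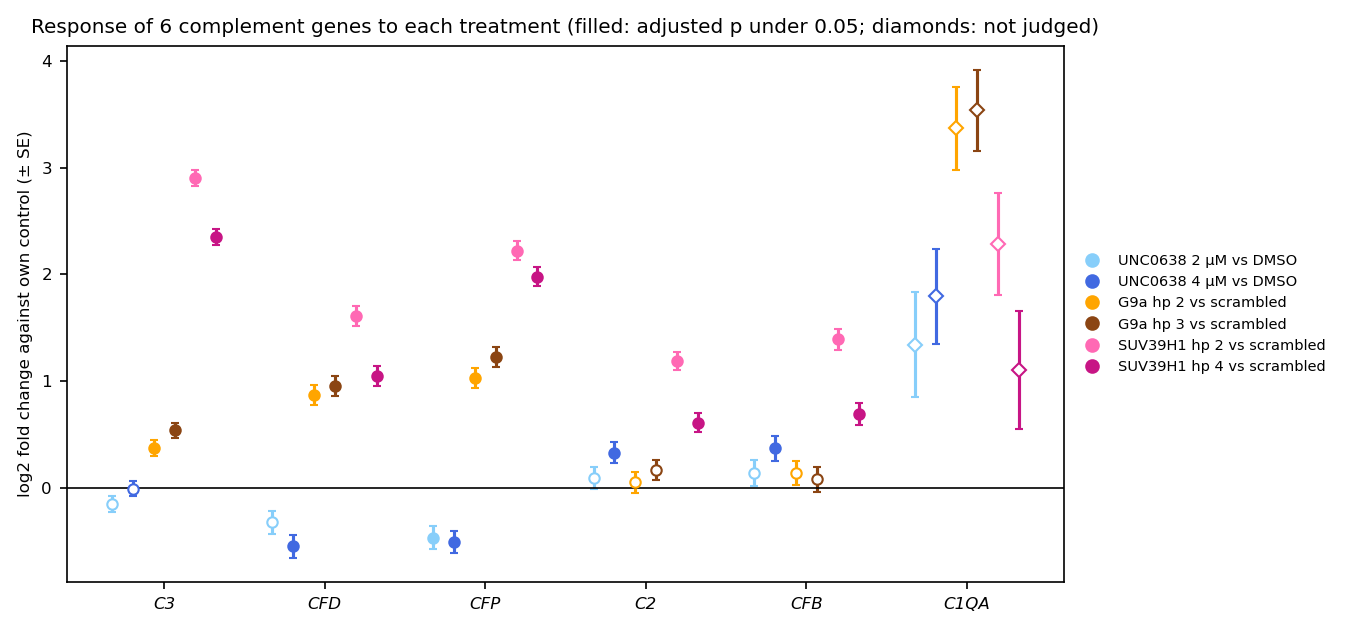
Log2 fold change of 6 complement genes against each arm's own control (points, bars ± SE of the edgeR fit), with filled circles for an adjusted p under 0.05 and open diamonds for C1QA, which is shown without a call; hp is hairpin. C3 reaches 2.91 with SUV39H1 hairpin 2, C1QA reaches 3.54 with G9a hairpin 3, and CFD and CFP lie below 0 with UNC0638 and above it with every hairpin.

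UNC0638 acts on the enzyme and the G9a hairpins on its transcript, and the difference between the responses was tested with each arm's own control. The 4 µM response was below the mean G9a hairpin response for 3 genes (22.3% of all genes), CFP by -1.64 ± 0.14 (adjusted p = 2.69e-10), CFD by -1.46 ± 0.14 (adjusted p = 2.49e-09) and C3 by -0.46 ± 0.10 (adjusted p = 0.000355). For C2 and CFB the differences were 0.22 ± 0.13 and 0.26 ± 0.15 (adjusted p = 0.182 and 0.198). Against the mean SUV39H1 hairpin response the 4 µM response was lower for 5 genes (29.6% of all genes), from -0.57 ± 0.13 for C2 to -2.63 ± 0.10 for C3. The arms differ in delivery and control, which cannot be told apart from the agent here.

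Other complement genes were taken from a list of 55, of which 54 were in the table and 28 were tested. With SUV39H1 hairpin 2, 17 of the 28 were called higher and 4 lower, against 34.5% and 32.6% of all genes, and the median was 0.75. With hairpin 4, 19 were higher and 3 lower (31.8% and 29.2% of all genes), and the median was 0.52. G9a hairpin 2 gave 11 higher and 6 lower (22.1% and 22.3% of all genes, median 0.17), and hairpin 3 gave 12 and 6 (22.6% and 22.1%, median 0.20). At 4 µM 9 were higher and 2 lower (10.2% and 9.73%, median 0.10), and at 2 µM 2 and 2 (3.83% and 3.34%, median 0.01). The higher counts include VSIG4 at 4 µM and CSMD1 with SUV39H1 hairpin 4. Each passed the filter only through that group, so a difference was built into its entry, and neither is read as a call. Over all genes the median was between -0.01 and 0.03 in these comparisons.

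Of 11 tested receptors for C1q and complement fragments, 9 were called higher and 1 lower with each SUV39H1 hairpin, where 34.5% and 31.8% of all genes were called higher. CR1, which binds C3b and C4b, rose by 3.11 ± 0.06 and 1.79 ± 0.06 with hairpins 2 and 4, from 5.57 to 51.0 and 21.0 CPM. ITGAM and ITGAX, the alpha chains of complement receptors 3 and 4, rose by 2.44 ± 0.06 and 2.50 ± 0.08 with hairpin 2 and by 1.62 ± 0.06 and 1.67 ± 0.08 with hairpin 4. Their shared beta chain ITGB2 rose by 0.93 ± 0.07 and 0.46 ± 0.07. CR1, ITGAM and ITGAX also rose with the G9a hairpins, by 0.43, 0.50 and 0.37 with hairpin 2 and by 0.43, 0.68 and 0.51 with hairpin 3. Scrambled libraries were themselves below DMSO for 6 of the 11 receptors, by -1.40 ± 0.06 for CR1, -0.42 ± 0.06 for ITGAM and -0.82 ± 0.08 for ITGAX. CR1 stood at 7.60 and 7.57 CPM with the G9a hairpins, below its level in DMSO.

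Of the anaphylatoxin receptors, C5AR1 and C3AR1 went in opposite directions between the knockdowns. C5AR1, the receptor of C5a, rose by 1.86 ± 0.10 and 2.20 ± 0.09 with SUV39H1 hairpins 2 and 4 and was lower by -0.53 ± 0.12 and -0.70 ± 0.13 with G9a hairpins 2 and 3, while it rose by 0.90 ± 0.10 at 4 µM. The direct difference between G9a and SUV39H1 hairpins was -2.65 ± 0.07 for C5AR1 (adjusted p = 1.85e-21). C3AR1, the receptor of C3a, gave 1.40 ± 0.06 and 0.92 ± 0.06 with the SUV39H1 hairpins, -0.55 ± 0.06 and -0.44 ± 0.06 with the G9a hairpins and 0.26 ± 0.05 at 4 µM, all called. C5AR2, a decoy-type C5a receptor, rose by 2.44 ± 0.18 and 1.30 ± 0.20 with the SUV39H1 hairpins and was not called elsewhere against its control. LRP1, an uptake receptor, rose by 2.23 ± 0.28 and 1.52 ± 0.30 there and by 1.40 ± 0.27 at 4 µM. VSIG4, the macrophage receptor of C3b, was counted at 19, 22 and 28 reads at 4 µM against 5, 4 and 5 reads with DMSO, a log2 difference of 2.11 ± 0.41, and at no more than 13 reads in any other library. CD93, once described as a C1q receptor, was called higher in all 6 comparisons, by 0.63 ± 0.03 at most. CALR, which binds C1q, was lower with the SUV39H1 hairpins (-0.23 ± 0.06 and -0.75 ± 0.06) and higher with the G9a hairpins (0.20 ± 0.06 and 0.25 ± 0.06).

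Among soluble and membrane components, C1R, a protease of the C1 complex, rose by 1.91 ± 0.13 and 1.11 ± 0.14 with the SUV39H1 hairpins, and its relative C1RL by 0.80 ± 0.06 and 0.77 ± 0.06. C5, the precursor of C5a, rose with all 4 hairpins, by 0.24 ± 0.07 with SUV39H1 hairpin 2 and by 0.65 to 0.77 with the other three. CD55, which speeds decay of the C3-cutting enzymes, rose with SUV39H1 hairpins 2 and 4 (0.96 ± 0.04 and 0.31 ± 0.04) and at 4 µM (0.32 ± 0.04) and was lower with G9a hairpins 2 and 3 (-0.30 ± 0.04 and -0.33 ± 0.04). PTX3, a soluble pattern receptor that binds C1q, was lower with all 4 hairpins, by -1.01 ± 0.06 and -0.94 ± 0.06 with those against SUV39H1. C1QBP, a mainly mitochondrial protein that binds C1q, was also lower with all 4, by -1.24 ± 0.05 and -1.03 ± 0.05 with SUV39H1 and -0.57 ± 0.05 and -0.61 ± 0.05 with G9a hairpins. Scrambled libraries were themselves called above DMSO for PTX3 and C1QBP and below it for C1R, C1RL and CD55. PTX3 stood at 14.7 to 17.1 CPM in scrambled and at 9.67 to 10.4 CPM in DMSO libraries. It stood at 12.3 to 13.4 CPM with the G9a hairpins and at 8.04 to 9.30 CPM with the SUV39H1 hairpins. C1QBP stood at 292 to 338 CPM in DMSO libraries and at no more than 270 CPM with any of these hairpins. C4A and C4B are near-identical copies and their reads may be shared, so their calls are uncertain.

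**Figure D4:**
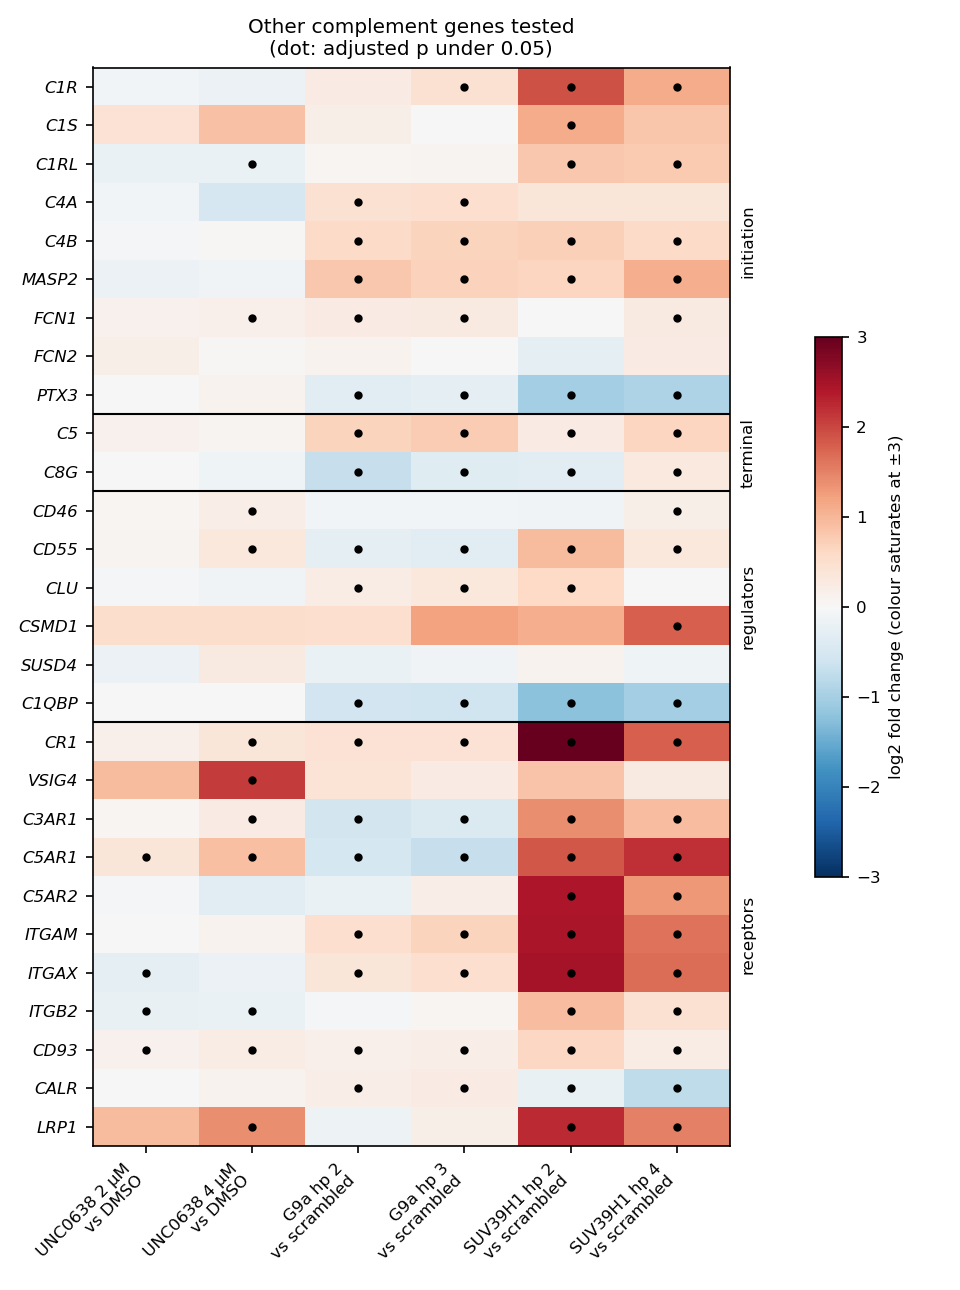
Log2 fold change (colour, saturating at 3 in either direction, red higher) of the 28 tested genes of the complement list against each arm's own control, grouped by role, with a dot for an adjusted p under 0.05; hp is hairpin. The receptor rows are mostly red with both SUV39H1 hairpins, at 3.11 for CR1 with hairpin 2, and C3AR1 and C5AR1 are blue with the G9a hairpins.

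Transcription factors known to act on complement genes were listed as well, and 19 of 20 were tested. With SUV39H1 hairpins 2 and 4, 11 of them were higher in each case (34.5% and 31.8% of all genes), and 4 and 3 were lower (32.6% and 29.2%). IRF1, an interferon-induced factor, rose by 1.54 ± 0.06 and 0.90 ± 0.06 with SUV39H1 and by 0.53 ± 0.06 and 0.62 ± 0.06 with G9a hairpins and was lower at 4 µM (-0.20 ± 0.06). IRF8 was lower with the SUV39H1 hairpins (-0.85 ± 0.04 and -0.55 ± 0.04), and SPI1 (PU.1) was called against its control only with SUV39H1 hairpin 2 (0.24 ± 0.06). CEBPB, an inflammatory factor that acts on C3, rose with SUV39H1 hairpins 2 and 4 (0.48 ± 0.08 and 0.52 ± 0.08). It was lower with G9a hairpins 2 and 3 (-0.55 ± 0.08 and -0.57 ± 0.08). Scrambled libraries were themselves called below DMSO for 9 of the 19 factors, CEBPB and IRF1 among them, and above it for 2. CEBPB stood at 95.6 to 96.8 CPM in scrambled, 121 to 133 CPM in DMSO and 135 to 168 CPM in SUV39H1 hairpin libraries. IRF1 stood at 11.7 to 13.4 CPM in scrambled, 15.2 to 16.8 CPM in DMSO and 17.7 to 20.3 CPM in G9a hairpin libraries.

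The genes most like each member were found by the correlation of log2 CPM over the 24 libraries, among genes with a mean of at least 2 CPM. As a description, without a test, C3 was most like NFKBIA (r = 0.989) and ITGAM (0.983). CFP was most like IQGAP3 (0.994), CAPS (0.991) and DENND4B (0.989), and CFD most like CST3 (0.980), SLPI (0.978) and SERPINB8 (0.977). CFB and C2 each had the other first, followed by SDCBP (0.963) and MEFV (0.960) for CFB and by MEFV (0.970) and NLRC5 (0.952) for C2. C1QA was most like EPB41L3 (0.904), EMILIN2 (0.894) and ASB2 (0.885). Among the 6, CFD and CFP had r = 0.934 and C2 and C3 r = 0.929, and C1QA had r = 0.0431 with C3 and r = 0.396 with CFD. The libraries of a group share their treatment, so these values mostly describe the pattern of 8 group means.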

How the data were processed

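Gene counts of 24 libraries from U937 cells were used. The authors deposited a table of whole-number counts per gene name, made with STAR and featureCounts (hg19), per the submitters' processing notes. Their versions, and whether multiply mapped or overlapping reads were counted, are not given in these sources. Per the labels' protocols, libraries came from a TruSeq v2 kit, which does not mark strand. The deposited table also gave another value, a length in bases, used for RPKM. The deposited repeat table was not used.

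CPM used each library's sum over all names (31545854 to 53803704). edgeR 4.0.16 (R 4.3.3) kept 20147 names (filterByExpr, minimum count 10, minimum total 15), scaled by TMM, and fitted glmQLFit with 1 mean per group to all libraries (common dispersion 0.00215); contrasts were tested with glmQLFTest, with Benjamini-Hochberg adjustment over 20147 names. The fit was also run on counts simulated from its own dispersion, with equal group means for most genes. The outcome is not reported here. Alternatives were DESeq2 1.42.0, RLE scaling, no filter, compared libraries only, a replicate block and leaving out each library. Genes were named by list: all 9 members, receptors, list genes by smallest p, transcription factors and the 3 most correlated genes. Some of these genes are not reported here. The members and lists were chosen with earlier results of these data known.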

Additional observations from a re-analysis of the deposited data

Results flagged for a closer look

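Responses under the same kind of contrast differed between the arms for several complement genes, each by a test of the difference itself (edgeR's quasi-likelihood test, each arm against its own control). Against the mean response to the G9a hairpins, the response to 4 µM UNC0638 was lower on the log2 scale for C3 (-0.46), CFD (-1.46) and CFP (-1.64). CFD and CFP were lower than DMSO in the inhibitor arm and higher than scrambled with the hairpins. Against the mean response to the SUV39H1 hairpins it was lower for C2 (-0.57), C3 (-2.63), CFB (-0.67), CFD (-1.88) and CFP (-2.61). Scrambled and DMSO libraries themselves differed for C3, CFD and CFP, and the agent, its delivery and its control cannot be told apart.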

How the results depend on the processing

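Leaving aside C1QA, all 16 calls of a member against scrambled with a G9a or SUV39H1 hairpin were kept under each of their 11 alternative settings, with a highest adjusted p of 0.00222 (C3, G9a hairpin 2). No log2 difference of a called member reversed in any alternative. Of all alternative values of member log2 differences 969 stayed on their side of the threshold, 10 passed it newly and 19 no longer passed. Precision is limited for C1QA, C1QB and C1QC, which held 293, 60 and 68 reads in all.

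Calls against DMSO were less stable. Counts of members in this part include C1QA. Among the DMSO and UNC0638 libraries alone C1QA did not pass the filter and was not tested, so C2 and CFB were the calls lost at 4 µM there. With only the compared libraries, 4 µM UNC0638 gave 0 members called higher instead of 3 and 1993 genes instead of 4012, 2 µM gave 0 members lower instead of 1 and 717 genes instead of 1444, 4 against 2 µM gave 236 genes instead of 371, G9a hairpin 2 against 3 gave 1 instead of 2, and scrambled against DMSO gave 1 member lower instead of 2; fewer samples enter these fits. At 2 µM, DESeq2 and no low-count filter each gave 2 members lower. Without the filter G9a hairpins 2 and 3 differed at 11 genes, and 2 members were higher with G9a than SUV39H1 hairpins, the added one being C1QB (adjusted p = 0.000185). C1QC was then lower in that comparison (adjusted p = 0.000904) and higher with SUV39H1 hairpin 4 than scrambled (adjusted p = 0.00236). Both C1QB and C1QC held few reads in these groups, so no call is made of them. In that edgeR fit the adjusted p of CFD with SUV39H1 hairpin 2 was 6.94e-142, far below its value in the main fit. Scrambled against DMSO gave 2 members higher with RLE scaling.

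Leaving out 1 library at a time, members higher at 4 µM ran from 1 to 3, members lower at 2 µM from 0 to 3 and genes called at 2 µM from 995 to 2197, the highest without DMSO replicate 1. Genes called between 4 and 2 µM ran from 215 to 276 and between the G9a hairpins from 0 to 2. Scrambled against DMSO gave 0 to 2 members higher and 1 to 2 lower. The cause of these shifts was not tested.

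Same-numbered libraries deviated together weakly: their deviations from group means had a median correlation of 0.0417 (-0.0931 to 0.228). Between libraries of other numbers the median was -0.0187. By mean correlation, 15 of 24 libraries were closest to those of their own number. With 2 µM against DMSO the same-number values ran from 0.0557 to 0.228. With 4 µM against DMSO they ran from 0.0212 to 0.188. The main fit held no replicate block. With the replicate block 2 members were lower at 2 µM (CFD added) and 2 higher in scrambled than DMSO (C2 added).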

Other observations

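CD59, which blocks the membrane attack complex at the end of the cascade, was listed with 10 reads over all libraries. How reads were assigned to its name is not given in the sources used here. It was counted at 4, 4 and 0 reads at 4 µM UNC0638, at 2, 0 and 0 reads at 2 µM and at 0 in the other 18 libraries. CD46, a membrane cofactor that inactivates C3b, stood at 203 to 264 CPM in every group and CD55 at 42.3 to 110 CPM. CD59 was singled out after its values were seen.

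MASP2, a protease of the lectin pathway, rose with all 4 hairpins. It rose by 0.81 ± 0.16 and 0.70 ± 0.16 with G9a hairpins 2 and 3. With SUV39H1 hairpins 2 and 4 it rose by 0.64 ± 0.16 and 1.08 ± 0.15. It stood at 1.43 CPM in scrambled and between 2.38 and 3.37 CPM in these groups. MASP2 was also singled out after its values were seen.

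IRF7 and IRF9 are transcription factors that carry interferon signals. Scrambled libraries were themselves called below DMSO for both, at 10.7 to 11.5 against 17.6 to 19.7 CPM for IRF7. For IRF9 they stood at 7.56 to 8.52 against 10.2 to 11.0 CPM. IRF9 rose by 2.29 ± 0.05 and 1.81 ± 0.05 with SUV39H1 hairpins 2 and 4 and by 0.73 ± 0.05 at 4 µM, and was lower with G9a hairpins 2 and 3 by -0.52 ± 0.06 and -0.54 ± 0.06. IRF7 rose by 3.34 ± 0.06 and 2.12 ± 0.06 with SUV39H1 hairpins and by 1.32 ± 0.06 at 4 µM, and was not called with G9a hairpins (-0.15 ± 0.07 and -0.09 ± 0.07).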
